A study of Sus scrofa with 12 samples.

Results

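FNDC1 lies on chromosome 1 of the pig genome (Sscrofa11.1) from 8007320 to 8106875 and is 99.6 kb long. Chromatin accessibility around it was measured in longissimus dorsi muscle from 6 boars of 180 days, 3 of the Duroc and 3 of the Luchuan breed, by ATAC-seq, in which a transposase cuts open chromatin and the fragments are sequenced. Duroc is a lean breed and Luchuan an obese Chinese breed, and both were raised under the same feeding conditions. All peak intervals with a midpoint between 7.9 and 8.3 Mb of chromosome 1 were taken, which were 35 of the 217213 intervals of the deposited table. Peaks called in both breeds are listed once for each breed, so overlapping common intervals were merged and represented by the longest. This left 28 regions of 140081 in all, with 19 in the central 200 kb, which start at 8 Mb and hold the whole gene, and 9 in the 2 flanks of 100 kb. The central window was chosen because its read counts differed between the breeds, so its values are given as a description and were not tested.

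For every region the table gives a single count for Duroc and a single count for Luchuan, so no spread between boars can be given for any value. Summed over all regions there were 20759894 Duroc and 13746020 Luchuan reads, and the median region had 61 and 38. Luchuan counts were therefore multiplied by 1.48, the factor that sets the median log2 ratio of all regions to 0. Each log2 ratio below is the scaled Luchuan count over the Duroc count, with 1 read added to each for single regions, genes and the ranked windows. Its 95% interval comes from the exact Clopper-Pearson interval of the Luchuan share of the reads. With a single count per breed, the intervals cover counting error only. Whether the reads carry molecular identifiers is not given. In this bulk tissue, fewer open cells of a type and less open chromatin per cell cannot be told apart.

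FNDC1 encodes a protein with fibronectin type III domains, the repeated fold that was first described in the matrix protein fibronectin. Its product is also known as an activator of G protein signaling. It has been described to bind the beta and gamma subunits of heterotrimeric G proteins and to act on gap junctions made of connexin. The gene is mostly studied in connective tissue cells and in the heart, and it is not a classical gene of the muscle fiber. An intronic or intergenic open region often marks an enhancer, but a read count alone does not show which gene a region acts on.

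Reads in FNDC1 were more frequent in Luchuan muscle. The 14 regions inside the gene held 843 Luchuan reads and 230 Duroc reads, which is 5.44-fold after scaling and a log2 ratio of the sums of 2.44 (2.23 to 2.66). All 14 had a log2 ratio above 0, from 0.02 to 4.02. The region at 0.02 was called as a peak in both breeds and the others in Luchuan only. Such a call itself favors a higher Luchuan count. The scaling puts the median of all regions at 0, and nothing is read from all 14 lying above it. The excess was unevenly spread along the gene. The 11 regions from 8013742 to 8037210, within the first 29.9 kb from the lower end of the gene, held 751 Luchuan reads and 129 Duroc reads and gave 3.11 (2.84 to 3.39). The 3 regions further along the gene held 92 Luchuan and 101 Duroc reads and gave 0.44 (0.01 to 0.86). The borders of the 11 regions were set after their values were seen. They are the regions in a row from the lower end that were 2-fold or more higher in Luchuan. A difference between these parts of the gene thus follows from the choice. It was 2.68 on the log2 scale, and nothing further is read from it. The annotation used here gives no strand or exons, so it is not stated which end holds the transcription start site, nor whether a region is exonic or intronic.

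**Figure D1:**
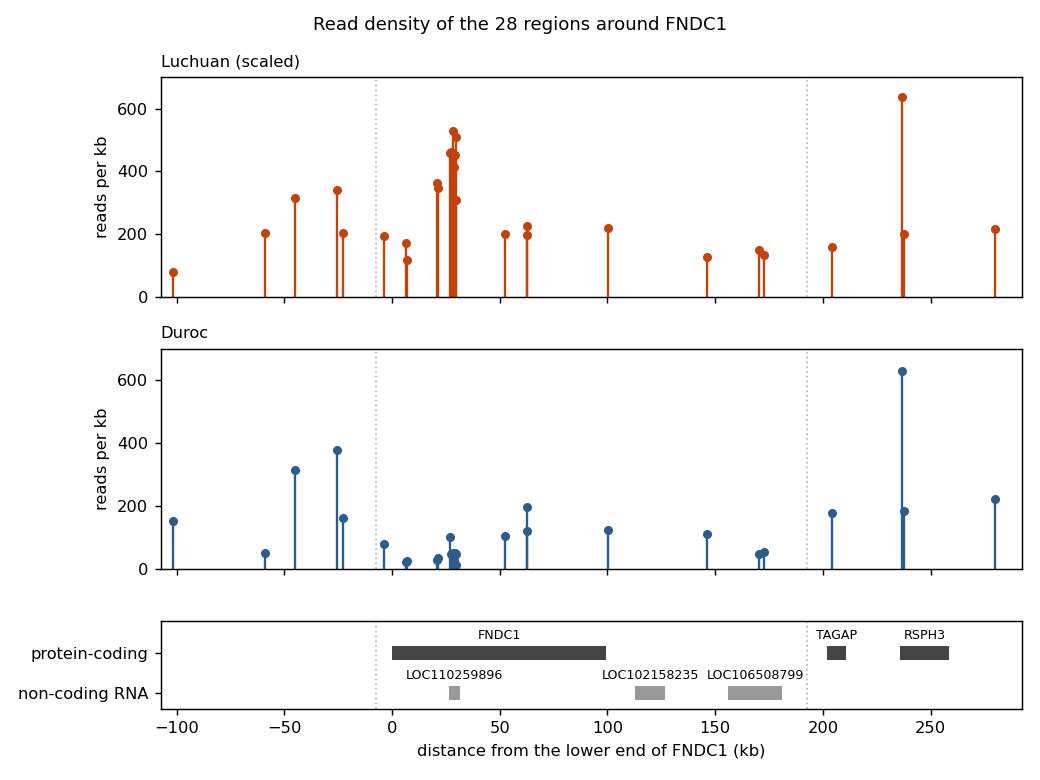
Reads per kb of region length in Luchuan (scaled, upper panel) and Duroc (middle panel) against the distance of the region's midpoint from the lower end of FNDC1 in kb, with annotated genes in the lower panel and dotted lines at the borders of the central window. Each stem is 1 of the 28 regions. Between 20 and 30 kb the Luchuan stems lie within the range of the flanking stems and the Duroc stems stay at 103 reads per kb or less.

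The densest group of regions coincided with an annotated non-coding gene inside FNDC1. LOC110259896, a long non-coding RNA gene from 8033581 to 8038827, contained 7 regions between 8034020 and 8037210, separated by gaps of 58 to 509 bases. Together they held 563 Luchuan reads and 101 Duroc reads, or a log2 ratio of 3.05 (2.74 to 3.37). What this RNA does is not given in the annotation, and ATAC-seq does not measure whether it is transcribed.

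In this group, the region at 8034020 to 8034408 had the most reads of both breeds, with 120 in Luchuan and 40 in Duroc, and a log2 ratio of 2.13 (1.63 to 2.71). It was the least different of the 7. Next to it, the region at 8034745 to 8035018 had 85 Luchuan reads and 13 Duroc reads, which gave a log2 ratio of 3.18 (2.43 to 4.25). The region at 8035528 to 8035817 had 103 Luchuan and 15 Duroc reads, with 3.27 (2.56 to 4.24). These neighbors were alike, and their intervals overlap that of the first region only at its upper end. From 8035876 to 8036080 there were 57 Luchuan reads and 6 Duroc reads, or a log2 ratio of 3.61 (2.61 to 5.32). From 8036245 to 8036568 there were 99 Luchuan reads and 16 Duroc reads, with 3.12 (2.43 to 4.06). The region at 8036742 to 8036936 had 67 Luchuan and 9 Duroc reads, with 3.33 (2.46 to 4.66). At the upper end, the region at 8037057 to 8037210 had 32 Luchuan reads and 2 Duroc reads. Its log2 ratio of 4.02 (2.60 to 7.68) was the highest of the locus and the least precise, since only 2 Duroc reads stand behind it. The intervals of the last 6 regions all overlap each other, so no order among them can be read at this depth.

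A pair of regions lay 5050 bases below this group, also inside FNDC1. The region at 8027965 to 8028319 had 87 Luchuan reads and 10 Duroc reads, which gave a log2 ratio of 3.56 (2.74 to 4.80). Beyond a gap of 360 bases, the region at 8028680 to 8028969 had 68 Luchuan reads and 10 Duroc reads, which gave a log2 ratio of 3.21 (2.37 to 4.46). The intervals of this pair overlap those of the 6 regions above. Closer to the lower end of the gene, a weaker pair was found. The region at 8013742 to 8013922 had 21 Luchuan reads and 4 Duroc reads, with 2.69 (1.40 to 4.97), and the region at 8014011 to 8014160 had 12 and 4, with 1.91 (0.43 to 4.24).

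The other regions of the gene body were closer to equal. From 8059656 to 8059847 there were 26 Luchuan and 20 Duroc reads, or a log2 ratio of 0.92 (0.05 to 1.87). The region at 8069705 to 8070025 had 43 Luchuan reads and 63 Duroc reads, with 0.02 (-0.57 to 0.60). It was the only region of the central window called as a peak in both breeds. Only 6 bases further, the region at 8070032 to 8070181 had 23 Luchuan and 18 Duroc reads, with 0.89 (-0.03 to 1.90). Beyond the upper end of the gene, at 535 bases, the region at 8107410 to 8107617 had 31 Luchuan reads and 26 Duroc reads, with 0.80 (0.02 to 1.63). No region lay within 2 kb of the lower end, and the nearest was 3661 bases outside it, from 8003508 to 8003659, with 20 Luchuan and 12 Duroc reads, which gave a log2 ratio of 1.24 (0.20 to 2.47). Both regions nearest to the ends of the gene thus had lower log2 ratios than the 11 regions, which were chosen as past 2-fold. Their intervals overlap those of the weaker pair at 8013742 and 8014011, so no order against that pair can be read.

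**Figure D2:**
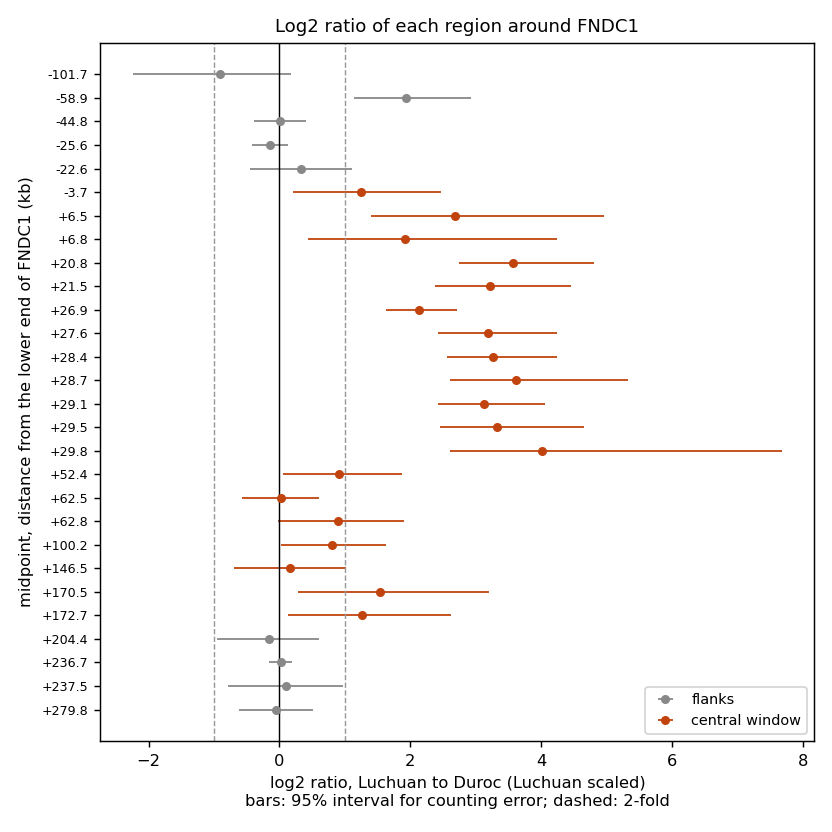
Log2 ratio of Luchuan to Duroc reads for each of the 28 regions, from low to high coordinate and labeled by the distance of the midpoint from the lower end of FNDC1 in kb. Points are the ratios after scaling, bars are 95% intervals for counting error, dashed lines mark 2-fold, and the regions at 6.51 to 29.8 kb stand to the right of nearly all others.

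In the central window as a whole, 14 of the 19 regions were 2-fold or more higher in Luchuan and 0 were 2-fold or more higher in Duroc. Over all 140081 regions these shares were 7.22% and 5.63%. As the window was chosen from these counts, nothing is read from the difference. For 10 of the 14, the whole interval for counting error lay past 2-fold. The weakest of the 14 was the region below the lower end of the gene, with 1.24, and the strongest of the other 5 had 0.92. All 14 were called as peaks in Luchuan only, a class for which a higher Luchuan count is favored by the call itself. Of all 26773 Luchuan-specific regions, 34.8% were past 2-fold in this direction. Of all regions with the depth of the 14, which is 16 to 160 reads in both breeds together, 10.4% were. In FNDC1, 8 regions were 8-fold or more higher in Luchuan, against 0.504% of the Luchuan-specific regions and 0.0971% of all regions. Read depth of these 8 ran from 34 to 118 reads in both breeds together, and among all regions of that depth 0.066% were past 8-fold.

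The remaining regions of the central window lay above the gene. The regions from 8177769 to 8177918 and from 8179885 to 8180072 lie in LOC106508799, a locus annotated as miscellaneous RNA. They had 15 Luchuan and 7 Duroc reads, with 1.54 (0.29 to 3.21), and 17 and 10 reads, with 1.25 (0.13 to 2.62). From 8153652 to 8153909, a Duroc-specific peak had 22 Luchuan and 29 Duroc reads, with 0.17 (-0.70 to 1.02). Without the 11 regions from 8013742 to 8037210, the central window held 197 Luchuan and 185 Duroc reads, and its log2 ratio was 0.66 (0.36 to 0.96). Of the regions left, the common one had 0.02 and the Duroc-specific one 0.17, and the others were called in Luchuan only. Over all Luchuan-specific regions, the medians were 20 Luchuan and 17 Duroc reads before scaling. The part of peak class in the value of 0.66 was not tested. Those 11 regions carried 79.2% of the Luchuan reads and 41.1% of the Duroc reads of the central window.

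The strong regions of FNDC1 lay above the median read density in Luchuan and below it in Duroc. They are Luchuan-specific regions past 2-fold, picked from these same counts, so their standing partly follows from the choice. The values below describe them, and nothing further is read from their place among all regions or in their class. Across the 9 regions from 8027965 to 8037210, Luchuan had 208 to 355 reads per kb without scaling, above the median of 150.3 for all regions and between percentiles 65.4 and 84.7. Duroc had 13.0 to 103 reads per kb there, below its median of 235, between percentiles 0.0928 and 12.4. The same 9 regions were 154 to 389 bases long. A Luchuan-specific region typically had a length of 163 bases and 20 Luchuan reads (medians; interquartile ranges, 150 to 196 bases and 15 to 30 reads), so 8 of these 9 were longer than the median of their class, and all 9, with 32 to 120 Luchuan reads, lay above its upper quartile of reads.

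**Figure D3:**
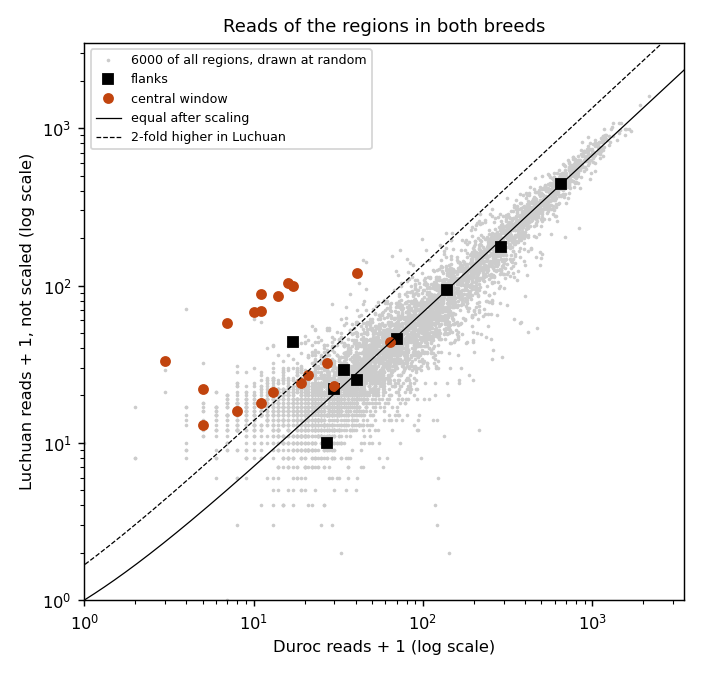
Luchuan reads against Duroc reads, each with 1 added and on a log scale, for the regions of the central window (orange circles), the flanks (black squares) and 6000 of all regions (gray). The solid line marks equal counts after scaling and the dashed line 2-fold. The 9 strong regions of FNDC1 have 57 or more Luchuan reads at 40 or fewer Duroc reads, except 1 with 32 and 2, and the 3 flanking regions with the most reads lie close to the solid line.

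The flanks were close to equality. Their 9 regions held 879 Luchuan reads and 1285 Duroc reads, or a log2 ratio of 0.02 (-0.10 to 0.15). The lower flank gave 0.05 (-0.15 to 0.25) and the upper flank 0.01 (-0.16 to 0.17). The central window held 948 Luchuan and 314 Duroc reads and gave 2.16 (1.98 to 2.35), so the difference between centre and flanks was 2.14 (1.92 to 2.37). The parts differ in peak class. Of the 19 central regions 17 were called in Luchuan only and 1 in both breeds. Of all 28 regions 6 were called in both, among them the strongest region of each flank. The part of peak class in this difference was not tested.

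In the upper flank, RSPH3 encodes a protein of the radial spoke of cilia. Of the 28 regions, the 1 at 8243470 to 8244500 at the lower end of RSPH3 had the highest count in both breeds, with 442 from Luchuan and 649 from Duroc and a log2 ratio of 0.02 (-0.16 to 0.19). TAGAP encodes a GTPase-activating protein of activated T cells. Its single region, at 8211603 to 8211825, held 24 Luchuan and 40 Duroc reads, with -0.16 (-0.96 to 0.60). The lower flank held no protein-coding gene. Its strongest region, at 7981390 to 7982145, held 174 Luchuan reads and 286 Duroc reads, with -0.15 (-0.43 to 0.13). Of the 9 flanking regions 1 was past 2-fold, from 7948217 to 7948529, with 43 Luchuan and 16 Duroc reads and 1.93 (1.14 to 2.92), and the intervals of the other 8 included 0.

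At the outer borders, the last region inside was that from 7905538 to 7905706, with 9 Luchuan and 26 Duroc reads, and the first outside, from 7897681 to 7897835, had 13 and 4, a log2 ratio of 2.02. On the other side, the last inside was from 8286945 to 8287252, with 45 Luchuan and 69 Duroc reads, and the first outside, from 8348061 to 8348917, had 300 and 470, a log2 ratio of -0.08. The next protein-coding gene below is SOD2, which encodes the mitochondrial superoxide dismutase and lies 318 kb below FNDC1. It had 571 Luchuan and 1039 Duroc reads in its body and 2 kb on both sides, a log2 ratio of -0.29 (-0.44 to -0.14). The next above, EZR, which encodes the membrane-to-actin linker ezrin, had 661 Luchuan and 1009 Duroc reads, with -0.04 (-0.18 to 0.10).

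Among 7739 windows of 200 kb with 5 or more regions, the central window ranked 6 from the highest log2 ratio. Of these windows 0.853% were 2-fold or more higher in Luchuan and 0.788% in Duroc. The adjoining windows on the lower and the upper side gave -0.11 (-0.28 to 0.05) and 0.01 (-0.11 to 0.13). In the window of 10 kb that starts at 8.03 Mb, all 7 regions were past 2-fold toward Luchuan. Of 80272 windows of 10 kb with a region, 235 held 7 or more regions and so could reach this count. Among these, no other had as many past 2-fold toward Luchuan. Toward Duroc, 1 window held as many. Counted along the chromosome, 12 regions in a row from 8003508 to 8037210 were past 2-fold toward Luchuan. Of 7486 such runs in the genome 5849 were single regions, and 2 had 12 regions or more. The longer had 26, on chromosome 7 from 31463131 to 31537840. Toward Duroc there were 6262 runs, of which 5153 were single regions and 1 had 12 or more, with 16 regions. These ranks describe how the locus stands in the table from which it was chosen.

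**Figure D4:**
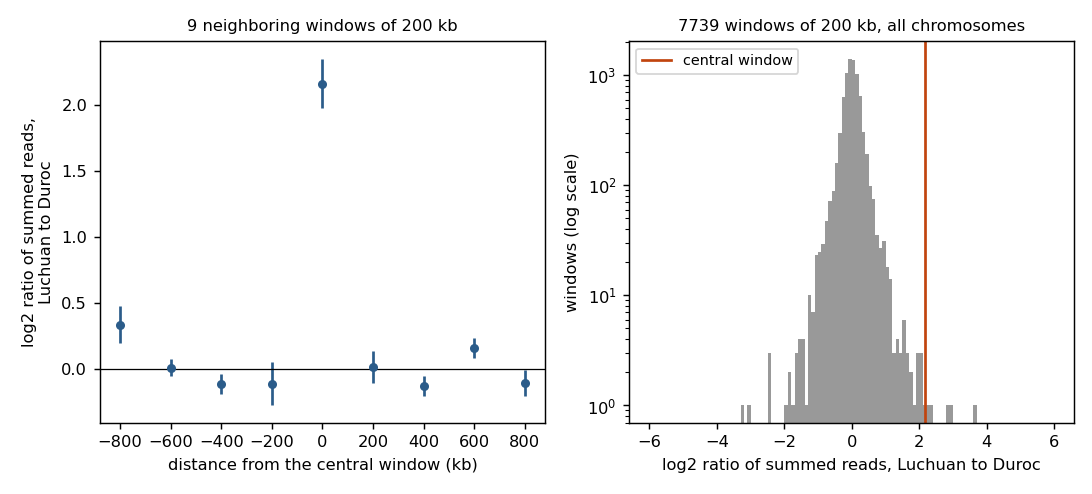
Left, log2 ratio of summed reads in 9 consecutive windows of 200 kb, with 95% intervals for counting error, against the distance from the central window in kb. Right, number of windows (log scale) by log2 ratio over 7739 windows, with the central window at 2.16 marked by a line. The other 8 windows on the left lie between -0.13 and 0.34.

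By gene, with 2 kb on both sides of the body, FNDC1 had 15 regions with 874 Luchuan reads and 256 Duroc reads, which gave a log2 ratio of 2.34 (2.14 to 2.55). Of 15830 protein-coding genes with 20 or more reads, 2.07% were 2-fold or more higher in Luchuan and 1.12% in Duroc. FNDC1 ranked 15 from the highest among them. Of the 1633 genes with at least 15 regions, it had the highest ratio, and 0.122% of them were past 2-fold. The next in this order, named after their values were seen, were FKBP5, a co-chaperone of the glucocorticoid receptor, with 1.08, and CSRNP3, a nuclear protein gene, with 0.92. FNDC1 and FKBP5 differed in depth, since FKBP5 had 3263 Luchuan and 2293 Duroc reads in 39 regions. The gene ranks, like those of the windows, describe the table from which the locus was chosen.

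Other genes named for fibronectin type III domains had lower log2 ratios. FNDC1 was chosen for its difference in these counts, so its place at the top is not read as a result. Of 11 genes in the list, FNDC1 included, 8 had a region, and their median log2 ratio was 0.13, against 0.013 for all genes. FN1, which encodes fibronectin itself, had 155 Luchuan and 153 Duroc reads, with 0.59 (0.26 to 0.92). FNDC3B, a membrane protein gene with 61 regions, had 4312 Luchuan reads and 6297 Duroc reads, with 0.02 (-0.03 to 0.08), and FNDC3A had 894 and 1191, with 0.16 (0.03 to 0.28). The only member past 2-fold toward Duroc was FNDC10, with 13 Luchuan and 43 Duroc reads in 1 region and -1.12 (-2.17 to -0.23). No region was listed for FNDC5, the precursor of the muscle hormone irisin, nor for FNDC9 and FNDC11.

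The genes of G protein beta and gamma subunits and of GJA1, which encodes a connexin, were near equality. All 12 had regions, 0 were past 2-fold, 6 lay above 0 and 6 below, and the median was 0.03. Over all 15830 genes, 2.07% were past 2-fold toward Luchuan and 1.12% toward Duroc, so the count of 0 is not read as a result. GNG7 had 0.13 (0.07 to 0.19) and GNG12 had 0.10 (0.01 to 0.19), the members with the most reads. The range ran from -0.44 for GNB2 to 0.43 for GNG11, and GJA1 had -0.02 (-0.30 to 0.27).

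FNDC1 is expressed by fibroblasts, so markers of the cells of muscle were set beside it. Of 12 fibroblast marker genes with regions 0 were past 2-fold, 8 lay above 0, and the median was 0.18. Over all 15830 genes, 2.07% were past 2-fold toward Luchuan and 1.12% toward Duroc, and the median was 0.013. Counts of 0 in these short marker lists are therefore not read as a result. Summed over the fibroblast genes there were 2457 Luchuan reads, or 3648 after scaling, and 3347 Duroc reads. COL5A1 and PDGFRA, with the most reads, had -0.06 (-0.23 to 0.11) and -0.09 (-0.25 to 0.07). COL3A1, a fibrillar collagen gene, was highest with 0.66 (0.37 to 0.96) and COL6A3 was lowest with -0.24 (-0.95 to 0.44). LUM had no region, and COL6A1 and COL6A2 of this list were not matched to the annotation. Markers of the muscle fiber lay toward Duroc, with 12 of 13 below 0, a median of -0.33 and 0 past 2-fold. MB of this list was not matched to the annotation. TTN, the giant titin gene, had 0.05 (0.03 to 0.07), NEB had -0.36 (-0.39 to -0.33) and MYH4, a fast myosin gene, was lowest with -0.77 (-0.83 to -0.70). The muscle fiber genes summed to 71363 Luchuan and 119752 Duroc reads. Most of these lay in 2 long genes, TTN with 34745 and 49989 and NEB with 13934 and 26523.

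The medians of the other marker lists lay between -0.21 and 0.16. They were 0.15 over 5 endothelial genes (from -0.16 for PECAM1 to 0.74 for KDR) and 0.16 over 5 smooth muscle and pericyte genes (from -0.51 for TAGLN to 0.68 for ACTA2). They were 0.02 over 4 adipocyte genes (from -0.30 for LEP to 0.34 for PLIN1), -0.03 over 5 immune genes and -0.21 over 3 satellite cell genes (from -0.29 for CDH15 to 0.50 for MYF5). Among all of these, CD3E of T cells and PTPRC of leukocytes were past 2-fold, in opposite directions. CD3E had 21 Luchuan and 13 Duroc reads, with 1.20 (0.20 to 2.38), and PTPRC had 28 and 88 reads, with -1.06 (-1.75 to -0.45). Both intervals reach below 2-fold. Over all genes with 20 or more reads, 2.07% were past 2-fold toward Luchuan and 1.12% toward Duroc. CDH5, RGS5, FABP4, CIDEC and LYZ of these lists had no region. The part of these cell types in the counts at FNDC1 was not tested.

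**Figure D5:**
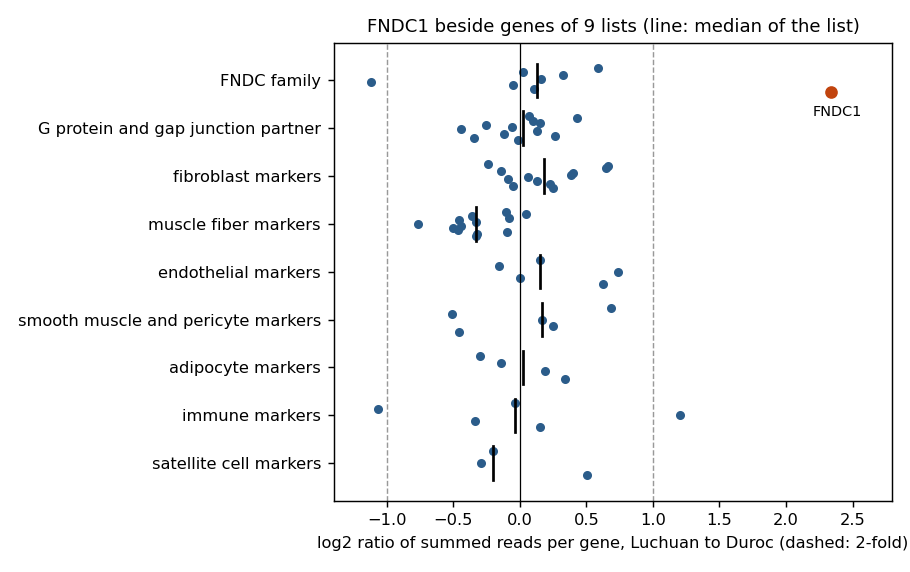
Log2 ratio of summed reads per gene (body and 2 kb on both sides), Luchuan to Duroc, for the genes of 9 lists, with the median of each list as a black line and dashed lines at 2-fold. FNDC1, in orange at 2.34, lies to the right of every other gene shown, the next being CD3E at 1.20. As FNDC1 was chosen for its difference in these counts, this order is not read as a result.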

How the data were processed

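Longissimus dorsi muscle of 6 boars (3 Duroc, 3 Luchuan) was profiled by ATAC-seq, and the RNA-seq libraries of the study were left out here. Trimming with Trimmomatic (version 0.36), alignment to Sscrofa11.1 by Bowtie2 and peak calling by MACS2 were done by the authors. They deposited raw read counts as whole numbers, with a single count for each interval in each breed and no scaling for depth. The count columns name no replicate and were read as pooled over 3 boars, which was not tested. How duplicates, the transposase offset and pooling were handled is not given in the sources used here. The authors' columns of rescaled log2 fold change, average signal and P were not used.

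Starts were read as counted from 0 (the shortest interval then has 150 bases) and are given counted from 1. Luchuan counts were multiplied by 1.48. No test between animals was possible with 1 value per breed. Ratios of sums over the locus have no added read. The interval of a difference of 2 sums is the exact conditional interval of the odds ratio. Gene positions came from 19550 protein-coding RefSeq genes of Sscrofa11.1, an assembly of a Duroc pig. A region belonged to a gene if its midpoint lay in the body, or where stated within 2 kb of it.

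The locus, the lists and the thresholds were chosen with earlier results of these data known. Named are FNDC1, the protein-coding genes in the 400 kb and the next on each side, all regions of FNDC1 and those past 2-fold, the strongest region of each flank and, from each list, genes with the most reads and the highest and lowest ratio. No sequence of the locus was used here. The scripts were tested on simulated data. The tools were SciPy 1.17.1, pandas 2.3.3, NumPy 2.4.6, statsmodels 0.14.6 and Matplotlib 3.10.9 under Python 3.11.15. Alternatives covered scaling, merging, low counts, the added read, the threshold and the window borders.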

Additional observations from a re-analysis of the deposited data

How the results depend on the processing

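Of 46 values recomputed under the alternatives, 39 stayed within the counting interval of the reported value or within 1.5 times the reported count. Some of these could not move. The difference between centre and flanks stays at 2.14 under any constant scale factor, since the factor cancels. The number of regions 2-fold higher in Duroc was 0 in every setting. The count of 39 is thus no measure of stability. With the clean reads of the libraries as the scale, the log2 ratio of the central window was 1.96 and that of the flanks -0.18. With all borders moved by 50 kb to lower coordinates, the central window gave 1.29 and its difference from the flanks was 1.26. Moved by 50 kb to higher coordinates, the 11 strong regions of FNDC1 fall in the lower flank by construction. The central window then gave 0.15 and the flanks 0.88, and the difference reversed to -0.74. The number of regions 2-fold higher in Luchuan lay between 10 and 14 in every setting that kept the borders. No paired analysis was possible because the count columns carry no replicate number, and leaving out a boar was not possible for the same reason. At 2 to 40 Duroc reads per region, depth limits the order among the strong regions.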
